A study of Homo sapiens with 6 samples.

Results

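The ZNF genes outside chromosome 19 are 214 protein-coding genes on the other autosomes and chromosome X whose symbol is ZNF followed by a number alone. They were taken from a count table of 58721 genes by symbol, biotype, position and a sum of at least 60 reads over all 6 libraries. Without the sum, 235 genes carry such a symbol on these chromosomes, so 21 fell short of it. Members were thus chosen by the reads summed over both groups together, and the difference between the groups was not part of the rule.

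The RNA came from A549, a long-established cell line of a human lung adenocarcinoma, grown in DMEM with serum. By their labels, 3 libraries (WT) are of cells overexpressing wild-type KAT8, and 3 (R98W) of cells overexpressing KAT8 with the R98W amino acid substitution, which the series title places in its Tudor-knot domain. The KAT8 level of the library labelled WT replicate 1 goes against its label, as given below, and WT and R98W stand for the labels throughout. All 6 libraries are of polyadenylated RNA, and none of them is labelled as without overexpression. Whether the replicates of a group grew as separate cultures is not in the labels, so a p-value reflects the spread of these libraries alone, and that spread may be technical. In bulk RNA, fewer cells expressing a gene and less RNA per cell cannot be told apart.

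Most ZNF genes encode C2H2 zinc finger proteins, in which each finger holds a zinc ion between cysteine and histidine pairs and an array of fingers reads a stretch of DNA. Many also carry a KRAB domain, which recruits TRIM28 and, through it, the histone H3K9 methyltransferase SETDB1 and HP1 proteins to silence chromatin, with transposable elements as well-known targets. Others carry a SCAN domain, through which the proteins pair with each other. KAT8, also called MOF, acetylates histone H4 in the MSL and NSL complexes. The largest ZNF clusters lie on chromosome 19, and the genes elsewhere sit in smaller runs or alone.

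The libraries held 90007121 to 110152936 counts, and the biological coefficient of variation over all genes was 10.0%. KAT8 (chromosome 16, 31115754 to 31131393, hg38) stood at 12.2, 195 and 184 CPM (counts scaled to a common library size) in WT replicates 1 to 3 and at 166, 196 and 236 CPM in R98W. The library labelled WT replicate 1 was thus low in KAT8, against its label, and the KAT8 difference was not called (log2 fold change 0.61, SE 0.48, edgeR adjusted p = 0.362). Without that library it was 0.06, with an edgeR adjusted p of 0.687. The size and call of this difference changed with the fit: with no filter on low counts it was called higher in R98W (0.61, edgeR adjusted p = 6.72e-16), and limma-voom gave 1.37, not called (adjusted p = 0.0853). It was 1.01 without WT replicate 2 and 0.93 without WT replicate 3. The 7 epithelial markers of A549 summed to 26103 to 26703 CPM in WT and 24929 to 27751 CPM in R98W. By edgeR, 2 of these 7 were called higher and 2 lower in R98W, which the sum does not show (16.2% and 18.5% of all genes tested). The 4 immune markers summed to at most 0.102 CPM in any library, with CD3E at 0. Endothelial markers (3 genes) summed to 0.392 to 0.779 CPM in WT and 0.214 to 0.362 in R98W, fibroblast markers (5 genes) to 10.5 to 14.6 and 11.6 to 13.1. The 4 lung lineage markers, 1 of them called lower, summed to 0.948 to 1.19 CPM in WT and 0.403 to 0.654 in R98W, so alveolar genes were close to absent in both groups. The endothelial and lung lineage sums moved with the group at these low levels. Mitochondrial ribosomal RNA took 1.04%, 0.905% and 0.937% of counts in WT and 1.47%, 1.57% and 1.47% in R98W. That share moved with the group too, and the part of these 3 measures in the differences below was not tested.

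All 214 members passed the filter on low counts and entered the test of R98W against WT, which covered 20713 genes. More members were lower in R98W than higher, and most were not called. By edgeR at an adjusted p under 0.05, 71 members were lower (33.2%, against 18.5% of all genes tested), 17 were higher (7.94%, against 16.2%) and 126 were not called. In either direction, 34.8% of all genes were called. Among the 14416 protein-coding genes tested the shares were 23.0% lower and 20.3% higher. The median log2 fold change was -0.15 over the members and -0.0047 over all genes, and 151 of the 214 values were negative. Without the library labelled WT replicate 1, 70 members were lower and 17 higher, with a median of -0.14. The number of higher members was 9 without WT replicate 2, 10 without WT replicate 3, 11 without R98W replicate 2 and 10 without R98W replicate 3. A per-library correction for GC content gave 26 higher and 57 lower members with a median of -0.06, and one for exon length gave 31 and 54 with a median of -0.04. These corrections moved the median over all genes from -0.0047 to 0.08 and 0.08. At 16 CPM and over, the members' median of -0.02 turned to 0.05 and 0.07 under them. That of protein-coding genes in this range moved from 0.07 to 0.14 and 0.17, so the members stayed below.

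The 2 groups of libraries did not overlap for 92 members with R98W below WT and for 22 with R98W above. Among all genes tested, 45.6% did not overlap, 24.2% with R98W below and 21.3% with R98W above. Of the called members, 16 were at least 2-fold lower and 0 at least 2-fold higher, where 4.85% and 0.748% of all genes tested were so called. Summed over all members, the level was 4075, 3857 and 4001 CPM in WT and 3934, 3892 and 3753 CPM in R98W. These sums overlapped, and the 126 members not called made up 2374, 2236 and 2317 CPM of them in WT and 2345, 2316 and 2220 CPM in R98W. The 71 lower members summed to 953, 959 and 972 CPM in WT and 745, 720 and 702 CPM in R98W, and the 17 higher members to 748, 661 and 713 CPM and 844, 856 and 831 CPM. Lower and higher members were sorted by their calls in these same libraries, so the gap between the groups in their sums follows from the sorting.

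Lower calls were most frequent among weakly expressed members, and higher calls fell to the more abundant ones. Of the 50 members under 4 CPM, 26 were lower and 0 were higher, with a median log2 fold change of -0.51. The 3808 protein-coding genes in that range held 1002 lower and 231 higher genes, with a median of -0.28. Below 1 CPM, 9 of 16 members were lower and 0 higher (protein-coding genes 18.8% and 3.76%), with a median of -0.72 against -0.29. Between 1 and 4 CPM, 17 of 34 members were lower and 0 higher (37.3% and 9.43%), and 31 of the 34 values were negative. Below 4 CPM, then, the lower share of the members lay above that of protein-coding genes, a difference that was not tested. Between 4 and 16 CPM, 30 of 94 members were lower and 4 higher (34.7% and 12.1%), with a median of -0.15 that lay near the -0.13 of protein-coding genes. At 16 CPM and over, 15 of 70 members were lower and 13 higher (17.4% and 30.0%), and the median was -0.02 against 0.07. Across the 214 members, Spearman's rho between mean log2 CPM and log2 fold change was 0.47 (Pearson's r 0.50), a description of genes that share the same 6 libraries. The rho was 0.28 after the per-library correction for expression level. For exon length rho was 0.23, for GC content -0.08 and for the number of C2H2 fingers -0.03.

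**Figure D1:**
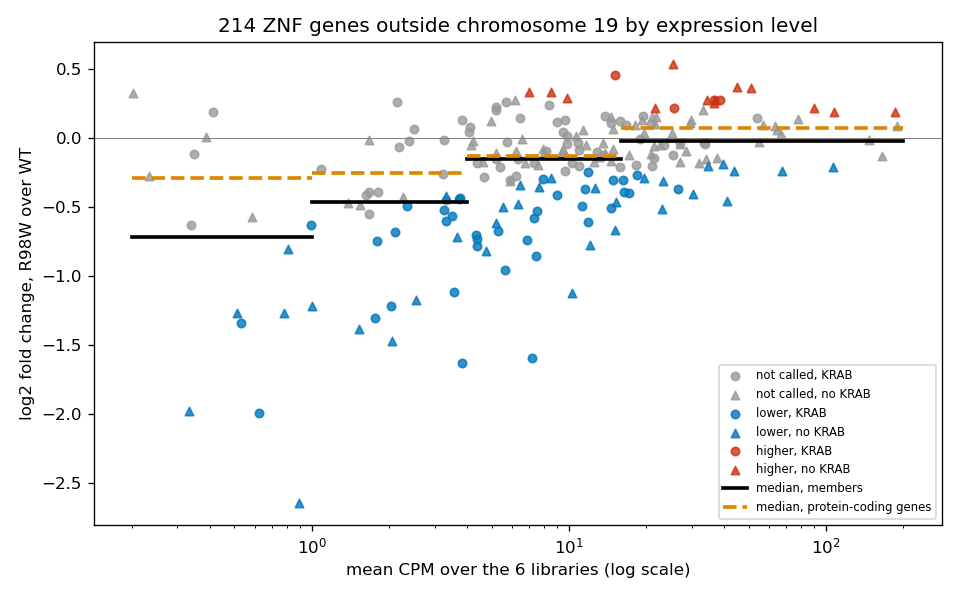
Log2 fold change (R98W over WT) of each of the 214 members against its mean CPM over the 6 libraries on a log axis, with colour for the edgeR call and shape for a KRAB match; black lines are medians of the members in each level range and dashed lines those of protein-coding genes. Lower members spread down to -2.64 at low levels, and all 17 higher members lie above 4 CPM.

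The sum of 60 reads left a gap at its edge. Just inside were ZNF660 with 124 reads, ZNF474 with 144 and ZNF843 with 204, and just outside were ZNF157 with 50, ZNF785 with 34 and ZNF750, an epidermal differentiation factor, with 31. Among the 21 symbols that fell short, 8 were listed at 0 in every library. Of these, ZNF593 and ZNF883 have other genes over 100% and 98.4% of their exons, so their counts are uncertain.

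The largest falls came from genes of several protein types. The 12 largest changes each way were taken among called members that averaged 1 CPM or more and whose groups did not overlap. All 12 falls were still called with any library left out. ZNF300 (chromosome 5, 150894392 to 150904983), a KRAB protein with 12 fingers, stood at 5.10, 6.10 and 6.27 CPM in WT and 2.25, 1.53 and 1.85 CPM in R98W. The log2 fold change of -1.63 had an SE of 0.16 and an edgeR adjusted p of 2.62e-07, and the lowest WT library was far above the highest R98W library. ZNF287 (chromosome 17, 16551387 to 16569206), which carries both SCAN and KRAB and 14 fingers, stood at 8.70, 11.9 and 11.7 CPM in WT and 3.80, 3.84 and 3.08 CPM in R98W (log2 fold change -1.59, SE 0.14, edgeR adjusted p = 6.48e-08). The library labelled WT replicate 1 was the lowest WT library for both genes. The groups were apart, as the choice of these 12 required. ZNF774 (chromosome 15, 90352245 to 90369146), with 12 fingers and no KRAB match, stood at 2.82, 3.19 and 3.01 CPM in WT and 1.22, 0.961 and 1.07 CPM in R98W (log2 fold change -1.47, SE 0.17, edgeR adjusted p = 2.83e-06). The WT values of this gene lay close together, and so did the R98W values.

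The SCAN gene ZNF396 (chromosome 18) stood at 1.8, 2.70 and 2.13 CPM in WT and 0.774, 0.775 and 0.985 CPM in R98W (log2 fold change -1.39, SE 0.21, edgeR adjusted p = 4.22e-05). ZNF215 (chromosome 11), a SCAN and KRAB gene known as imprinted, stood at 1.84, 2.90 and 2.78 CPM and at 0.978, 1.08 and 0.985 CPM, a change of -1.30. It shares exon sequence with ZNF214 on the other strand, and without a stated strand setting the reads of such a pair cannot be told apart. The KRAB gene ZNF717 (chromosome 3) stood at 2.56, 2.99 and 2.99 CPM and at 1.23, 1.29 and 1.16 CPM, a change of -1.22. ZNF717 has near-identical sequence elsewhere in the genome, so its counts are uncertain. ZNF594 (chromosome 17), with 21 fingers and no KRAB match, stood at 2.85, 4.03 and 3.71 CPM and at 1.88, 1.37 and 1.43 CPM, a change of -1.18. ZNF32 (chromosome 10), with 6 fingers, stood at 11.3, 16.8 and 14.3 CPM and at 7.20, 5.79 and 6.50 CPM, a change of -1.12, with antisense genes over 38.6% of its exons. In these 5 genes every WT library was above every R98W library, which the choice of members without overlap ensured.

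Among the KRAB genes of this set were also ZNF620 on chromosome 3, ZNF2 on chromosome 2 and ZNF133 on chromosome 20. ZNF620 stood at 4.71, 4.83 and 5.17 CPM in WT and 2.54, 1.75 and 2.50 CPM in R98W (log2 fold change -1.12). ZNF2 had the tightest WT values of the 12, at 7.44, 7.42 and 7.52 CPM, against 3.96, 3.45 and 4.13 CPM, a change of -0.95. ZNF133, a KRAB repressor, stood at 8.93, 10.5 and 9.29 CPM and at 6.26, 4.77 and 4.79 CPM, a change of -0.86. ZNF70 on chromosome 22, with 10 fingers and no KRAB match, stood at 6.16, 6.41 and 5.69 CPM and at 3.68, 3.20 and 3.46 CPM, a change of -0.82. ZNF185 on chromosome X was among the 5 falls with the smallest p but is no C2H2 gene: its protein is an actin-associated LIM-domain protein. It stood at 15.4, 15.5 and 14.7 CPM in WT and 8.94, 8.96 and 8.77 CPM in R98W (log2 fold change -0.78, SE 0.09, edgeR adjusted p = 2.56e-06). Below 1 CPM, and so outside the naming rule and chosen after their values were seen, ZNF853 and ZNF214 had changes of -2.64 and -1.99.

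**Figure D2:**
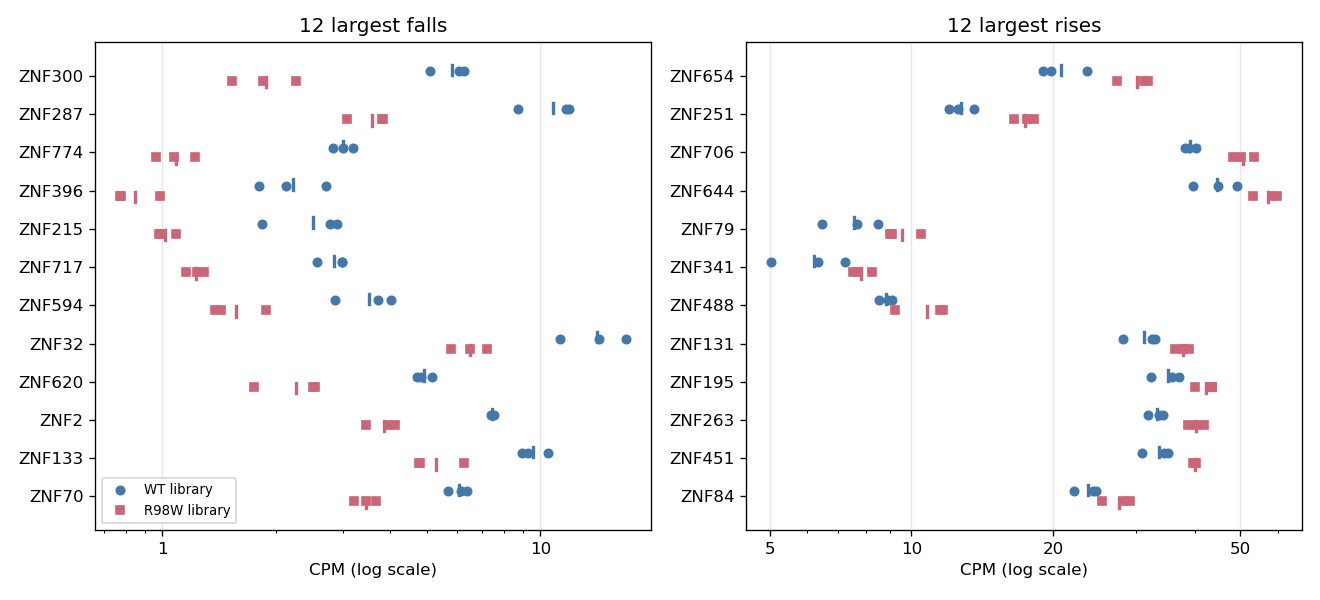
CPM on a log axis in each WT library (circles) and each R98W library (squares) for the 12 largest falls (left) and the 12 largest rises (right) among members of at least 1 CPM with no overlap between the groups; short vertical lines are group means. The falls run from -1.63 (ZNF300) to -0.82 (ZNF70) on the log2 scale, and the rises from 0.53 (ZNF654) to 0.22 (ZNF84).

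The rises were smaller than these falls and came mostly from more abundant genes. ZNF654 (chromosome 3, 88059274 to 88144665) stood at 23.6, 19.1 and 19.8 CPM in WT and 31.2, 31.9 and 27.4 CPM in R98W (log2 fold change 0.53, SE 0.09, edgeR adjusted p = 0.000144). ZNF251 (chromosome 8), a KRAB gene, stood at 13.6, 12 and 12.6 CPM and at 18.2, 16.5 and 17.6 CPM, a change of 0.45 (SE 0.09, edgeR adjusted p = 0.000521). ZNF706 (chromosome 8), a short protein with 1 finger, stood at 40.3, 38.9 and 38.1 CPM and at 53.5, 50.2 and 48.1 CPM, a change of 0.37 (SE 0.07, edgeR adjusted p = 0.000353). In all 3 genes every R98W library was above every WT library, again as the choice required. ZNF644 (chromosome 1), a partner of the H3K9 methyltransferases G9a and GLP, stood at 49.1, 39.7 and 44.9 CPM and at 59.8, 58.5 and 53.2 CPM, a change of 0.36 (SE 0.08, edgeR adjusted p = 0.00157). ZNF195 (chromosome 11), a KRAB gene, stood at 37.0, 32.3 and 35.8 CPM and at 40.1, 43.5 and 43.5 CPM, a change of 0.27. ZNF263 (chromosome 16), a SCAN and KRAB gene, stood at 34.3, 33.7 and 31.9 CPM and at 41.8, 40.2 and 38.6 CPM, also a change of 0.27 (0.44 with the GC correction), with other genes over 34.3% of its exons. These 6 rises were called with any library left out.

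The other 6 of the 12 rises each lost the call with at least 1 library left out. ZNF131 (chromosome 5), a BTB-domain zinc finger protein, stood at 32.9, 28.2 and 32.4 CPM in WT and 39.0, 36.3 and 37.9 CPM in R98W (log2 fold change 0.27). ZNF451 (chromosome 6), a SUMO ligase, stood at 35.1, 31.0 and 34.5 CPM and at 40.3, 40.1 and 39.6 CPM, a change of 0.25. WT replicate 2 was the lowest library of both, and without it their edgeR adjusted p was 0.0545 and 0.0547. ZNF79 (chromosome 9) stood at 8.51, 7.67 and 6.47 CPM and at 9.08, 9.03 and 10.5 CPM, a change of 0.34, and without WT replicate 3 or R98W replicate 3 its edgeR adjusted p was 0.195 or 0.141. ZNF341 (chromosome 20), which controls STAT3 transcription, stood at 7.22, 5.04 and 6.35 CPM and at 7.51, 7.69 and 8.27 CPM, a change of 0.34. Its edgeR adjusted p was 0.0565 with upper quartile scaling, 0.246 without WT replicate 2 (change 0.19), 0.107 without WT replicate 3, and 0.0673, 0.0904 and 0.147 without R98W replicates 1 to 3. ZNF488 (chromosome 10), an oligodendrocyte differentiation factor, stood at 9.10, 8.94 and 8.52 CPM and at 9.23, 11.7 and 11.5 CPM, a change of 0.29. R98W replicate 1 lay just above the highest WT library, and the edgeR adjusted p was 0.0619, 0.0762 and 0.161 without WT replicates 1 to 3 and 0.185 and 0.151 without R98W replicates 2 and 3. The call on ZNF488 also ended with upper quartile scaling (edgeR adjusted p 0.0565) and limma-voom (0.0544), and the GC correction gave 0.44. The KRAB gene ZNF84 (chromosome 12) stood at 24.7, 22.2 and 24.3 CPM and at 29.2, 25.4 and 28.2 CPM, a change of 0.22, with an edgeR adjusted p of 0.167 and 0.0933 without WT replicates 2 and 3 and of 0.177 and 0.106 without R98W replicates 1 and 3. With no filter or upper quartile scaling the edgeR adjusted p of ZNF84 was 0.0549 or 0.0557.

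The promoters of the 3 largest falls, of a fall rich in GC boxes (ZNF70) and of 2 rises are printed so that their letters can be set side by side. Sequences are from RefSeq (GRCh38.p14), which held a promoter for 177 of the 214 members. Printed are the bases before the RefSeq start that also lie before the GENCODE gene, and the 2 rises are those named with at least 150 such bases. They run 5' to 3' on the gene's strand, and capitals mark letters of the GC box, ETS, CCAAT box, TATA box, YY1, ZNF143 and NRF1 motifs, searched on both strands and spelled out below. The windows are chr5:150904984-150905230 (minus strand) for ZNF300, chr17:16569207-16569454 (minus) for ZNF287, chr15:90352034-90352244 (plus) for ZNF774, chr22:23751113-23751362 (minus) for ZNF70, chr11:3379223-3379396 (minus) for ZNF195 and chr9:127424132-127424373 (plus) for ZNF79.
ZNF300: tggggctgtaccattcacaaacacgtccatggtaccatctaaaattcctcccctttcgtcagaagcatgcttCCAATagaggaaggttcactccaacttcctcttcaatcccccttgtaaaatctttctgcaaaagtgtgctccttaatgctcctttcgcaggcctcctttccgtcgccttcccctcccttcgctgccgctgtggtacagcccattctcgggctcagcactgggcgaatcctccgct
ZNF287: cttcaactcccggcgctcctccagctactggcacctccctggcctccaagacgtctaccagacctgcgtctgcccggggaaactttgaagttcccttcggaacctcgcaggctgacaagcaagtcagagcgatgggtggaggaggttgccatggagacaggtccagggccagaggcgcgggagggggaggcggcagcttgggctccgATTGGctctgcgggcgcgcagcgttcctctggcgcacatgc
ZNF774: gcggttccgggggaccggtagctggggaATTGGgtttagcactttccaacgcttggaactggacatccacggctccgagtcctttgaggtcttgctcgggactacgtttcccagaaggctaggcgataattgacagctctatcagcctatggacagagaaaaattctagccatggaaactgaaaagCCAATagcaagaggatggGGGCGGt
ZNF70: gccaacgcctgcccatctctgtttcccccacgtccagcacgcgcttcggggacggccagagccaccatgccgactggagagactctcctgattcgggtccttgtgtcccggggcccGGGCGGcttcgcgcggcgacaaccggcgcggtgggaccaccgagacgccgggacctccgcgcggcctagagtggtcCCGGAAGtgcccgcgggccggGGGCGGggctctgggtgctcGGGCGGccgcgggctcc
ZNF195: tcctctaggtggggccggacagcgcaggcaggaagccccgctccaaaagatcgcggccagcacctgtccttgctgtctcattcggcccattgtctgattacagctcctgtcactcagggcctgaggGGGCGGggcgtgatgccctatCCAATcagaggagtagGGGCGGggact
ZNF79: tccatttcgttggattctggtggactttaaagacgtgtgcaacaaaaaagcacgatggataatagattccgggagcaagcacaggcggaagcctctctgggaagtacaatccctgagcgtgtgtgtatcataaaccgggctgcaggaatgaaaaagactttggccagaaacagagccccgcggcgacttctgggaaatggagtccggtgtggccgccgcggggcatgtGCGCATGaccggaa

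ZNF300 and ZNF287, the 2 largest falls, each held 1 CCAAT box and 0 GC boxes in the printed bases, while ZNF70, also a fall, held 3 GC boxes and 1 ETS match. The rise ZNF195 held 2 GC boxes and 1 CCAAT box, and the rise ZNF79 held 1 NRF1 match alone. The full windows of 300 bases (250 before and 50 after the start) were searched for all members and for all 27305 promoters. A GC box, GGGCGG, was found in 66.1% of member promoters and in 43.8% of all promoters. An ETS motif, CCGGAAG, was found in 37.3% and 10.6%, and a CCAAT box, CCAAT, in 44.1% and 35.6%. The NRF1 motif GCGCATG was found in 11.9% and 4.58%, and the ZNF143 motif ACTACAA in 6.21% and 2.92%. The YY1 motif AAGATGG was found in 6.78% and 6.04%, and a TATA box, TATAAA, in 4.52% and 12.1%. No motif is part of another, though matches of different motifs can overlap. The median promoter of a member held 25 CpG dinucleotides against 13 over all promoters. Among the 59 lower members with a promoter, 28.8% held an ETS match, against 41.0% of 105 members not called and 6 of 13 higher members. A GC box was found in 64.4%, 65.7% and 76.9% of them in that order, a CCAAT box in 44.1%, 44.8% and 38.5%, and the median CpG number was 22, 25 and 26. These differences between lower, higher and other members were not tested, and a match is no evidence of binding.

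By protein class, counts are from the GENCODE coding transcripts. Of 105 members with a KRAB match, 38 were lower and 4 higher, with a median log2 fold change of -0.20. Of 109 without, 33 were lower and 13 higher, with a median of -0.11. KRAB members were also less abundant, with a median of 7.29 CPM against 14.6 CPM, and the difference between the classes was not tested. With the exon length correction the median without KRAB was 0.01. Over all genes tested it was 0.08 with either that or the GC correction. Under 1 CPM, 3 of 6 KRAB members and 6 of 10 others were lower, between 1 and 4 CPM 12 of 25 and 5 of 9, and 0 were higher in either range. Within 4 to 16 CPM, 18 of 53 KRAB members were lower and 1 higher, and 12 of 41 others were lower and 3 higher. At 16 CPM and over, 5 of 21 KRAB members were lower and 3 higher, and of the 49 others 10 were lower and 10 higher. The 19 SCAN members, 12 of them also KRAB members, held 9 lower and 2 higher, and the 94 members with fingers alone held 26 lower and 12 higher with a median of -0.09, which was 0.04 and 0.03 with the GC and exon length corrections. Among the 8 members with no C2H2, KRAB or SCAN match, 3 were lower, ZNF185 being one, and 0 higher. By number of fingers, 18 of 37 members with 1 to 4 fingers were lower and 5 higher, 17 and 7 of 71 with 5 to 9, 22 and 4 of 68 with 10 to 14, and 10 and 1 of 28 with 15 or more.

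**Figure D3:**
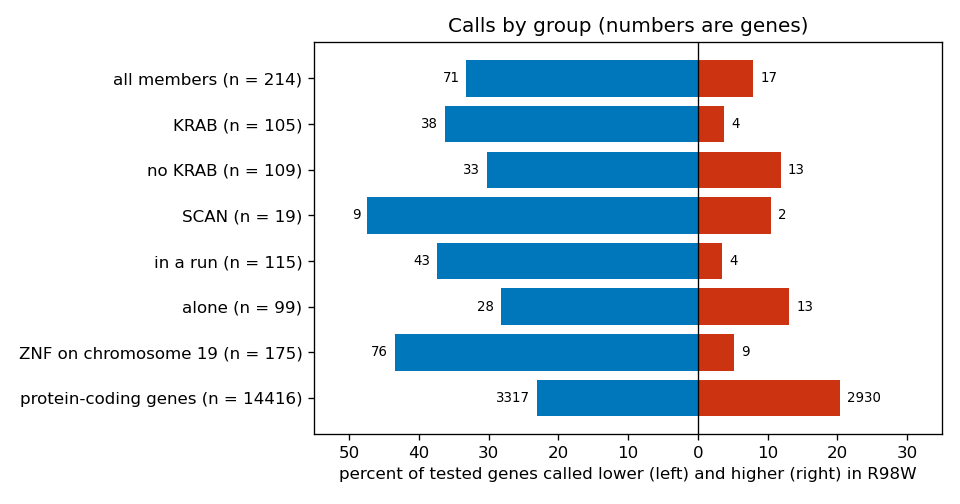
Percent of tested genes called lower (left) and higher (right) in R98W, with the numbers of genes beside the bars, for the members, their KRAB, SCAN and position classes, ZNF genes of chromosome 19 and protein-coding genes. Lower calls outnumber higher ones 71 to 17 among all members and 3317 to 2930 among protein-coding genes.

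The KRAB corepressor machinery, a list of 32 genes chosen with results of these data known, held 6 higher and 6 lower genes and 20 not called, with a median log2 fold change of -0.04. Both shares, 18.8%, lay near those of all genes tested, 16.2% higher and 18.5% lower. The GC and exon length corrections turned the median to 0.04 and 0.06, with 8 higher and 5 lower genes and 10 and 5. Either correction moved the median over all genes tested to 0.08. TRIM28, the scaffold that KRAB domains bind, stood at 472, 414 and 417 CPM in WT and 438, 452 and 489 CPM in R98W and was not called (0.08, edgeR adjusted p = 0.399). SETDB1, its H3K9 methyltransferase, stood at 31.2, 33.9 and 29.9 CPM and at 27.3, 28.2 and 27.6 CPM, without overlap between the groups, and was not called (-0.20, edgeR adjusted p = 0.0511). Both calls changed with the fit. SETDB1 was called lower with DESeq2, upper quartile scaling or a filter of 50 counts, and without WT replicate 1 or WT replicate 3. TRIM28 was called higher with the GC or exon length correction. The lower genes were the DNA methylation factors UHRF1 (-0.68), DNMT3A (-0.50) and DNMT1 (-0.47), the HP1 gene CBX1 (-0.34), the remodeller CHD3 (-0.32) and the HUSH subunit MPHOSPH8 (-0.28). The higher genes were the chromatin factor MORC3 (0.33), the HP1 gene CBX3 (0.27), the deacetylase HDAC2 (0.19), the SUMO gene SUMO2 (0.19), the NuRD subunit MTA2 (0.19) and the HUSH subunit TASOR (0.18). HDAC2, SUMO2, MTA2 and TASOR lost the call with single libraries left out. By edgeR, the adjusted p without R98W replicate 1 was 0.104 for HDAC2, 0.0915 for SUMO2, 0.0898 for MTA2 and 0.201 for TASOR, and without R98W replicate 2 it was 0.0818, 0.0888, 0.0905 and 0.133. Without WT replicate 3 it was 0.0503, 0.0642, 0.224 and 0.103 in the same order. HDAC2 was also lost without the library labelled WT replicate 1 (edgeR adjusted p 0.0555), MTA2 and TASOR without WT replicate 2 (0.0683 and 0.144), and MTA2 without R98W replicate 3 (0.0848). With the correction for expression level MORC3 was the 1 higher gene of the list, and CBX3 was at 0.10 (edgeR adjusted p = 0.245). CHD3 lost the call with the GC correction (edgeR adjusted p = 0.0993) and MPHOSPH8 with the exon length correction (0.0543).

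The members were spread over most chromosomes, with the largest groups on chromosomes 16 and 7. Chromosome 16 held 29 members, 10 lower and 2 higher with a median log2 fold change of -0.10, and chromosome 7 held 27, 9 lower and 0 higher with a median of -0.09. Protein-coding genes had medians of -0.02 and -1.4e-05 there, with 23.0% and 22.0% lower. With the GC and exon length corrections the member medians turned to 0.03 and 0.04 on chromosome 16 and to 0.02 and 0.03 on chromosome 7. Those of protein-coding genes rose too, to 0.10 and 0.08 on chromosome 16 and to 0.08 and 0.10 on chromosome 7, and stayed above the members. The lowest medians among chromosomes with at least 6 members were -0.36 on chromosome 2 (4 of 6 lower), -0.32 on chromosome 17 (4 of 8 lower, 1 higher) and -0.29 on chromosome X (4 of 9 lower), against 0.01, -0.04 and -0.02 for protein-coding genes there, of which 22.5%, 28.0% and 24.95% were lower. On these chromosomes the members lay below protein-coding genes as a whole in the median. On chromosome 4, 0 of 7 members were called, with a median of -0.05, where protein-coding genes had 0.06. Chromosome 18 had a positive member median, 0.08 over 8 members, 1 lower and 1 higher, where protein-coding genes had 0.10. Of the members on chromosomes 1 and 3, 29.4% and 26.7% were lower, against 22.5% and 20.8% of protein-coding genes there. On chromosomes 8, 9, 10 and 12 the member shares were 33.3%, 36.4%, 25% and 36.4%, against 16.8%, 22.8%, 20.03% and 26.3%. Differences between chromosomes were not tested. For comparison, the 175 tested ZNF genes of chromosome 19 held 76 lower and 9 higher genes with a median of -0.30, and their median level was 4.34 CPM against 9.62 CPM. Under 1 CPM, 11 of 31 chromosome 19 genes and 9 of 16 members were lower, and between 1 and 4 CPM 31 of 53 and 17 of 34. Between 4 and 16 CPM 30 of 64 and 30 of 94 were lower, and at 16 CPM and over 4 of 27 and 15 of 70. The order of the shares thus differed between ranges and was not tested. At 16 CPM and over the medians were -0.0036 and -0.02.

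**Figure D4:**
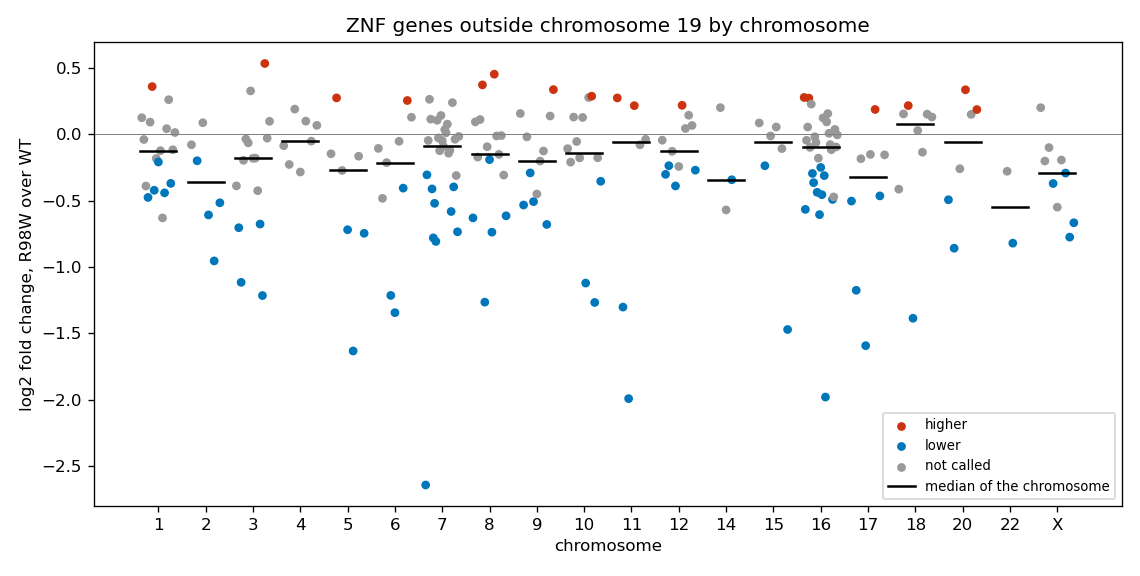
Log2 fold change (R98W over WT) of each member by chromosome, coloured by the edgeR call, with the median of each chromosome as a black line. The median lies at or below -0.05 on each chromosome shown except chromosome 18, where it is 0.08, though with the GC or exon length correction it turns positive on others, chromosomes 7 and 16 among them. The medians of protein-coding genes on chromosomes 7 and 16 rise with these corrections too.

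Members with starts within 500 kb of the next were joined into runs. The 29 runs held 115 members, of which 43 were lower and 4 higher with a median log2 fold change of -0.19. The 99 members alone held 28 lower and 13 higher with a median of -0.11 (0.01 with the exon length correction). Under that correction the median over all genes tested was 0.08. Of all genes tested, 18.5% were lower and 16.2% higher. Members in runs were also less abundant, with a median of 7.32 CPM against 13.8 CPM. With the expression level correction the medians were -0.10 and -0.06, and the difference between members in runs and alone was not tested. In pairs and triplets 21 of 43 members were lower and 1 higher, and in runs of at least 4 members 22 of 72 were lower and 3 higher. Runs of a chromosome held unequal numbers of called members, which was not tested. Of 6 members between 64519884 and 65401135 on chromosome 7, 4 were lower with a run median of -0.47, while 10 members between 149069643 and 149867479 held 3 lower genes with a run median of -0.13. On chromosome 3, 2 of 3 members between 40477113 and 40574685, where ZNF620 lies, were lower, and 0 of 6 between 44431720 and 44723831 were called. On chromosome 4, 0 of the 5 members between 53285 and 499156 were called.

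The longest run, 13 members between 30378106 and 31917357 on chromosome 16, surrounds KAT8 itself, and 7 of its members were lower and 0 higher, with a median of -0.25. Of all protein-coding genes tested on chromosome 16, 23.0% were lower and 16.9% higher. Genes of this stretch other than the members and KAT8 were not looked at, and a link to the place beside KAT8 was not tested. With the GC correction only ZNF629, ZNF688 and ZNF843 of the run stayed lower, and its median was -0.08. With the exon length correction these 3 and ZNF646 stayed lower and ZNF267 was higher (0.26, edgeR adjusted p = 0.0249), with a median of -0.13. With the expression level correction 5 were lower, with a median of -0.15. ZNF629, with 19 fingers, was the most abundant of these and stood at 49.6, 47.5 and 46.0 CPM in WT and 37.3, 33.4 and 33.7 CPM in R98W (log2 fold change -0.46, SE 0.07, edgeR adjusted p = 7.25e-05), a change of -0.28 with the GC correction. ZNF688, a KRAB gene, stood at 3.52, 4.03 and 4.52 CPM and at 2.18, 2.53 and 3.21 CPM, a change of -0.61 (SE 0.16, edgeR adjusted p = 0.00642). ZNF48 stood at 16.2, 12.9 and 13.7 CPM and at 11.6, 10.5 and 11.1 CPM, a change of -0.36. Its edgeR adjusted p was 0.0936 with the GC correction (-0.20) and 0.0579 with that for exon length (-0.24). In all 3 genes every R98W library was below every WT library. ZNF843 was the weakest, at 0.613, 0.496 and 0.485 CPM against 0.122, 0.176 and 0.104 CPM, a change of -1.98 (SE 0.40, edgeR adjusted p = 0.000775). ZNF747 (-0.44) and ZNF689 (-0.25), both KRAB genes, were called with all libraries, with groups apart. With the GC, exon length and expression level corrections ZNF747 was at -0.26, -0.32 and -0.28 and ZNF689 at -0.08, -0.13 and -0.15, none of them called. ZNF689 was not called with no filter either (edgeR adjusted p = 0.0774). The edgeR adjusted p of ZNF747 was 0.0924 without the library labelled WT replicate 1, 0.0505 without WT replicate 2 and 0.0613, 0.0637 and 0.0614 without R98W replicates 1 to 3. That of ZNF689 was 0.0633 and 0.0744 without WT replicates 2 and 3 and 0.127, 0.0583 and 0.0858 without R98W replicates 1 to 3. The other members of the run, ZNF771 (-0.02), ZNF768 (-0.06), ZNF764 (-0.18), ZNF668 (0.12), ZNF720 (0.09) and ZNF267 (0.16), were not called.

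**Figure D5:**
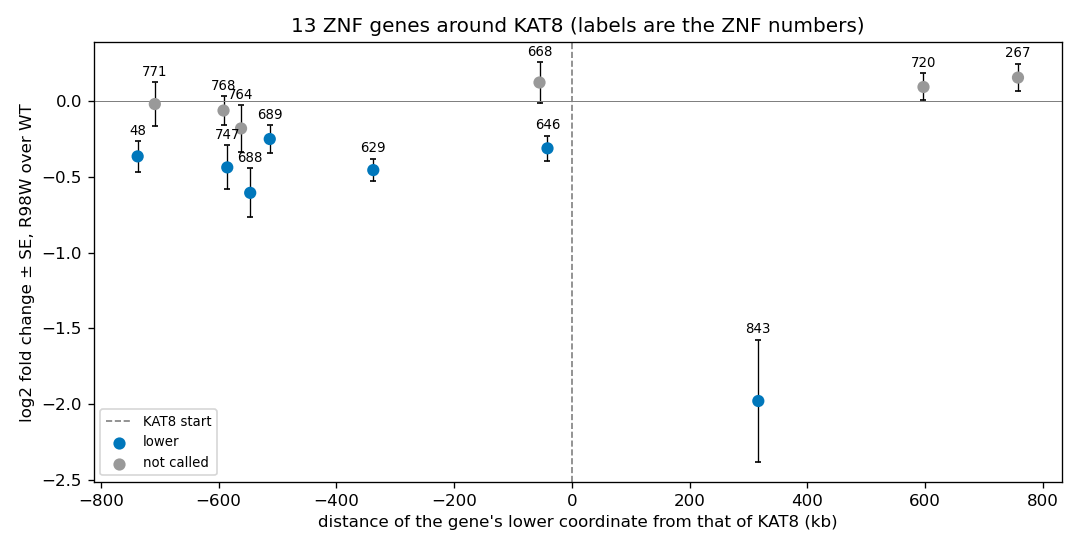
Log2 fold change (R98W over WT) with its SE for the 13 members around KAT8, by the distance in kb of each gene's lower coordinate from that of KAT8 (dashed line). Called genes are blue and others grey, and ZNF646 (-0.31) and ZNF668 (0.12) lie next to each other at the KAT8 side.

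ZNF646 and ZNF668 lie head to head beside KAT8, with 101 bases between their starts. These bases, chr16:31074321-31074421 (plus strand, towards ZNF646), are shown because both genes start at their edges, and they held 0 matches to the motifs above. The 250 bases before ZNF646, which include them and reach into ZNF668, held 2 ETS matches and 1 GC box outside the bases shown.
ZNF668-ZNF646: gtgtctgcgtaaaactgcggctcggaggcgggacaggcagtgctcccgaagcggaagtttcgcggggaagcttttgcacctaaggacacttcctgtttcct
ZNF646 (31074422 to 31084196), with 30 fingers the member with the most among those named, stood at 28.3, 24.0 and 24.8 CPM in WT and 19.6, 21.4 and 21.1 CPM in R98W (log2 fold change -0.31, SE 0.08, edgeR adjusted p = 0.0066). With the GC correction the call on ZNF646 ended (-0.14, edgeR adjusted p = 0.171). ZNF668 (31060843 to 31074320), with 16 fingers and linked to DNA repair, stood at 4.94, 4.78 and 4.57 CPM and at 5.01, 4.47 and 6.08 CPM and was not called (0.12, SE 0.13, edgeR adjusted p = 0.518). The log2 ratio of ZNF646 to ZNF668 was 2.43 ± 0.093 in WT and 2.01 ± 0.233 in R98W (SD, n = 3 each). The ratio was lower in every R98W library than in any WT library, by 0.42 on average, with an exact permutation p of 0.1 (two-sided), which is the smallest that 3 against 3 libraries can give. Both genes overlap genes on the other strand, with AC135050.1 over 36.5% of the exons of ZNF668, and their reads cannot be told apart from those of these genes.

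Per kb of exon, the most abundant members were ZNF664, ZNF622, ZNF281, ZNF217, ZNF638 and ZNF609, at 26.0, 22.2, 21.7, 17.4, 15.1 and 12.1 CPM per kb. ZNF281, a factor that binds GC-rich DNA, stood at 115, 108 and 119 CPM in WT and 103, 98.8 and 94.0 CPM in R98W (log2 fold change -0.21, SE 0.07, edgeR adjusted p = 0.0199). With the exon length correction its call ended (-0.09, edgeR adjusted p = 0.280). Its edgeR adjusted p was 0.0903 without WT replicate 3 and 0.0667 and 0.0862 without R98W replicates 2 and 3. ZNF217, an oncogene amplified in breast cancer, stood at 106, 92.3 and 104 CPM and at 113, 121 and 110 CPM, a change of 0.19 (SE 0.07, edgeR adjusted p = 0.0447). Its edgeR adjusted p was 0.192 and 0.0878 without WT replicates 2 and 3 and 0.0892 and 0.204 without R98W replicates 1 and 2, and the change was 0.12 without WT replicate 2. The call on ZNF217 also ended with the expression level correction (0.09, edgeR adjusted p = 0.344), upper quartile scaling (0.0607), no filter (0.0501) and a filter of 50 counts (0.0557). The ribosome assembly factor ZNF622 (-0.15), ZNF664 (-0.13), ZNF609, the host of a circular RNA (-0.01), and ZNF638, which silences unintegrated retroviral DNA with the HUSH complex (0.09), were not called. ZNF664 was called lower with the expression level correction (-0.26, edgeR adjusted p = 0.0041). These 6 members lay between -0.21 and 0.19 on the log2 scale.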

How the data were processed

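For each of 6 libraries the authors deposited unnormalised whole-number counts of reads per gene. Per the submitters' processing notes the tools were HTSeq 0.11.3, HISAT2 2.1.0 and CASAVA 1.8 with hg38, roles not stated. Which annotation, strand setting and read filters were used is not given in the sources used here. Identifiers were matched to GENCODE 29. Counts were tested with edgeR 4.0.16 (R 4.3.3): filterByExpr with a minimum count of 10 and a total of 15, TMM, glmQLFit and glmQLFTest, Benjamini-Hochberg adjustment over 20713 genes at 0.05. CPM use TMM-scaled totals, and the SE comes from the test statistic. KRAB matches came from a pyhmmer 0.12.3 profile, fingers from the pattern Cys, 2 or 4 residues, Cys, 12 residues, His, 3 to 5 residues, His, in the longest coding transcript. The 46 named members are the 12 largest rises and falls of at least 1 CPM without overlap, the 5 smallest p each way, the 6 highest per kb, those beside the sum and the longest run, which is also the run at KAT8. Symbols with a letter after the number (20 genes) were not members. Members, lists and rules were chosen with earlier results of these data known. On simulated counts, 48, 49, 50 and 49 of the genes tested were changed by folds of 1.25, 1.5, 2 and 4. Of these, 16.7%, 57.1%, 70.0% and 98.0% were recovered, with 15 false calls among 20225 genes tested. Far fewer genes were changed there than the 34.8% called in these data. The adjustment for many tests was thus stricter there, and the recovered shares may not carry over.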

Additional observations from a re-analysis of the deposited data

How the results depend on the processing

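Over 18 other fits, 38 lower and 2 higher members (ZNF251 and ZNF654) were called in every fit, and 0 members changed direction with a call. The GC correction gave 5096 higher genes overall and 26 higher members with a median of -0.061, the exon length correction gave 5203, 31 and -0.043, and the expression level correction gave a median of -0.062. A test against a fold of 1.2 (glmTreat) left 884 higher and 1982 lower genes, with 2 higher and 39 lower members. A threshold of 0.01 left 2143 higher genes and 7 higher members, and upper quartile scaling 11 higher members. Without members that overlap another tested gene, 46 of 152 were lower (30.3%, against 33.2% of all members), with a median of -0.14. Of the 62 members that do overlap one, 25 were lower (40.3%), with a median of -0.18, a difference that was not tested. Leaving out each library in turn gave 9 to 17 higher and 54 to 70 lower members. Causes were not tested.

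The replicate numbers did not pair the libraries: same-numbered deviations correlated at 0.0056, -0.039 and -0.037. With the replicate number as a block, 12 members were higher and 67 lower, with a median of -0.15. Under the block KAT8 was called higher (1.22, edgeR adjusted p = 0.000788), and ZNF689 (0.067), ZNF217 (0.0628), ZNF84 (0.0554), ZNF488 (0.0587) and, in the corepressor list, MTA2 (0.0561) and TASOR (0.0694) were not called. Of the members, 1 had under 10 reads in a library. Members were chosen by their summed reads, so this count cannot show how far depth limits the calls, which was not tested.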
